A study of Homo sapiens with 10 samples.

Results

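The H3K4me3 landscape of RPMI-8402 was described from all 13852 regions listed for the H3K4me3 library of set B, on chromosomes 1 to 22 and X. They were taken whole, with no selection by any measured value, out of 121294 regions in the 6 peak lists used. RPMI-8402 is an established human cell line from a T-cell leukaemia (T-ALL in the labels), grown in RPMI medium with serum, and no drug or genetic change is named for any group. All 10 libraries were made from it by CUT&RUN, in which an antibody recruits a nuclease that cuts out the DNA beside its target. The other lists were H3K27ac and H3K4me1 of set C, MYC of set C, MYC of set D and MYCN of set A, and the 4 control IgG libraries, of which set B had its own, have no list used here. Each list came from 1 library, and H3K4me3 was in another set than every list it is compared with, so that set and target cannot be told apart.

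Trimethylation of lysine 4 on histone H3 is deposited around the starts of transcribed genes, mostly on the nucleosomes that flank the start and in CpG islands. The width of such a region differs between genes, and very broad regions are known from genes that define a cell's identity. H3K27ac marks active promoters and enhancers, and H3K4me1 is typical of enhancers and of the outer flanks of promoters. MYC and MYCN, which bind DNA together with MAX, are found at many promoters with open chromatin. No annotation or sequence of hg19 was used here, so regions are given by position only, the starts of genes within them are not named, and the T-cell label was not checked against marker genes. The lists hold no score or read count, so the depth behind a region is unknown.

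The widths of the H3K4me3 regions crowded at the narrow end and again at a broad maximum. The median was 1341 bp, with quartiles at 607 and 1980 bp. The smallest width, 180 bp, was shared by 358 regions, and the regions below 200 bp, all within 20 bp of that floor, numbered 655. The first full 100 bp bin, from 200 bp, held 1054 regions, fewer per bp than the part bin before it. The counts then dropped to 396 in the bin from 700 bp and reached a broad maximum of 609 in the bin from 1400 bp. The widest region measured 9165 bp.

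By class, 2965 regions were under 500 bp (21.4%, exact 95% interval 20.7 to 22.1%), 2165 measured 500 to below 1000 bp (15.6%, 15.0 to 16.2%) and 5327 measured 1000 to below 2000 bp (38.5%, 37.6 to 39.3%). A further 3177 measured 2000 to 4000 bp (22.9%, 22.2 to 23.6%) and 218 were over 4000 bp (1.57%, 1.37 to 1.8%). The class under 500 bp held many regions but few bases, 0.870 Mb or 4.41% of all bases under H3K4me3. The classes of 1000 to 2000 bp and 2000 to 4000 bp held 40.3% and 41.7% of the bases, and the 218 widest held 5.36%. At the class limits the widths ran on without a break. The last region within 4000 bp measured 3996 bp and the first outside it 4006 bp, with 32 regions in the 100 bp below that limit and 24 in the 100 bp above. These intervals, like all others here, cover counting error over the listed regions only, and with 1 library there is no replicate and no test between conditions.

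**Figure D1:**
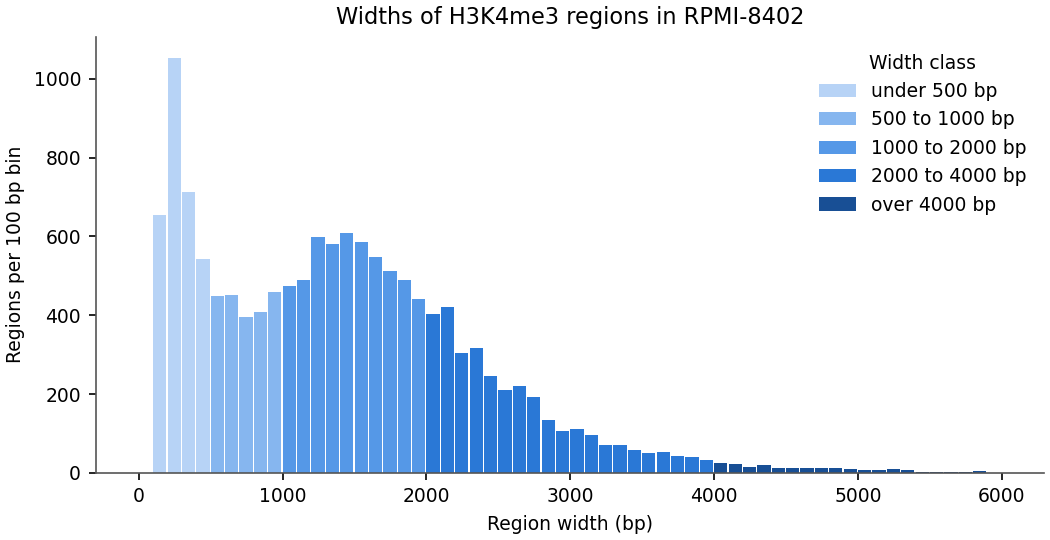
Number of H3K4me3 regions (vertical axis) by width in bp (horizontal axis, 100 bp bins, shaded by width class); 22 regions over 6000 bp lie beyond the axis. The first bar, from 100 bp, holds 655 regions of 180 bp or wider only, so its height understates their density; the bin from 200 bp holds 1054 and the broad maximum, from 1400 bp, 609.

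The regions nearest the median of their class serve as examples of each. The region chr1:114414117-114414390 (274 bp) stood for the narrowest class and overlapped H3K27ac, H3K4me1 and MYC of set D. For 500 to 1000 bp it was chr1:25761981-25762730 (750 bp), with H3K27ac alone. The region at chr1:39491684-39493168 (1485 bp) overlapped H3K27ac, H3K4me1 and MYC of set D, and that at chr1:40504933-40507389 (2457 bp) both MYC lists but no H3K27ac. Over 4000 bp it was chr19:47216966-47221582 (4617 bp), with 2 H3K27ac regions, 2 MYC regions of set C and 1 MYC peak of set D.

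The 5 widest single regions differed widely in H3K27ac, from none to 37.3% of their bases. The region chr7:92459776-92468940 (9165 bp) had 7.85% of its bases in H3K27ac, 37.7% in MYC of set C and 6.18% in MYC of set D. The region chr6:32934699-32942884 (8186 bp) was the only one of the 5 with MYCN, and 29.1% of it lay in H3K27ac and 84.9% in MYC of set C. H3K27ac covered 37.3% of chr12:46118680-46126424 (7745 bp) and 7.98% of chr21:36255344-36262987 (7644 bp). The region at chr7:23507853-23515427 (7575 bp) overlapped no H3K27ac region, although 44.1% of it lay in MYC of set C. All 5 overlapped both MYC lists and none overlapped H3K4me1. Of all regions over 4000 bp, 83.0% overlapped both MYC lists and 9.63% H3K4me1.

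Very short gaps between neighbouring regions were far more frequent per length than gaps just above 1 kb. Over 13829 gaps the median was 50215 bp (95% interval of the median 48203 to 52283 bp), with quartiles at 10428 and 160586 bp. Gaps under 1 kb numbered 1873 (13.5%), or 187.3 per 100 bp of gap length, against 26.6 per 100 bp for the 266 gaps of 1 to 2 kb. Their median was 208 bp, and 891 of them (47.6%) were shorter than 200 bp. The smallest gap was 117 bp. The largest, 22.5 Mb at chr1:121261713-143743381, holds no H3K4me3 region in this list. Whether reads can be placed in this stretch was not checked, so it may not show chromatin without the mark.

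**Figure D2:**
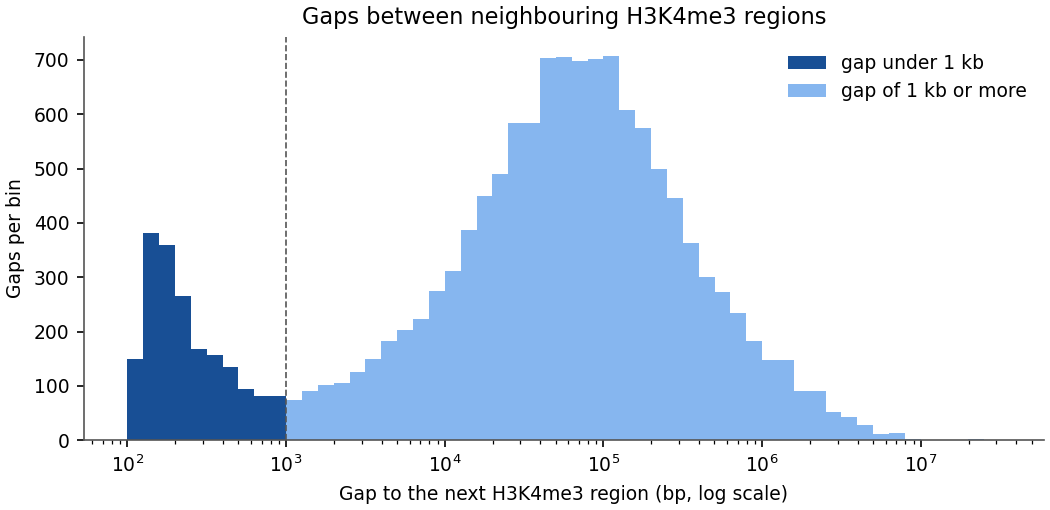
Number of gaps (vertical axis) by gap length in bp (horizontal axis, log scale), with gaps under 1 kb dark and longer ones light; the dashed line is at 1 kb. The 1873 short gaps, with a median of 208 bp, stand apart from the long ones around the overall median of 50215 bp.

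Spacing differed with width. The nearest neighbour was at a median of 799 bp for regions under 500 bp, 9682 bp for 500 to 1000 bp, 25017 bp for 1000 to 2000 bp and 35059 bp for 2000 to 4000 bp, but 10494 bp for those over 4000 bp. A neighbour closer than 1 kb was found for 51.7% of regions under 500 bp (49.9 to 53.5%), 34.4% of 500 to 1000 bp (32.4 to 36.5%), 13.6% of 1000 to 2000 bp (12.7 to 14.5%), 13.3% of 2000 to 4000 bp (12.1 to 14.5%) and 33.0% over 4000 bp (26.8 to 39.7%). Close neighbours were thus more common below 1000 bp and above 4000 bp than between these limits. Among regions without such a neighbour, the class medians lay closer together, from 20246 bp under 500 bp to 45716 bp for 2000 to 4000 bp. Standing more than 100 kb from any other region was seen for 9.51% of the narrowest class (8.48 to 10.6%) and 22.5% of the class of 2000 to 4000 bp (21.1 to 24.0%).

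The most isolated regions were not narrow ones. The region chr13:67802875-67805996 (3122 bp) had its nearer neighbour 4633000 bp away and overlapped MYC of set D alone. The region chr4:62065784-62067365 (1582 bp) was 4088668 bp from its nearer neighbour and overlapped H3K27ac alone. Next came a pair of chromosome X regions that were each other's nearer neighbour across 3009982 bp, chrX:92927742-92929443 (MYC of set D alone) and chrX:95939426-95941529 (H3K27ac and both MYC lists). The last of the 5, chr3:79066711-79068882 (2172 bp), overlapped H3K27ac, both MYC lists and MYCN.

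Most close pairs held at least 1 region under 500 bp. In all, 3494 regions (25.2%, 24.5 to 26.0%) had a neighbour under 1 kb away, and 252 of these had one on both sides. Their median width was 606 bp, compared with 1502.5 bp for the other 10358 regions. Over the 1873 pairs the wider partner had a median of 1288 bp (quartiles 680 and 2108 bp) and the narrower one 309 bp (213 and 526 bp), and the median ratio was 2.96. Partners were sorted by width, so a ratio of at least 1 is fixed by construction. The narrower partner was under 500 bp in 1376 pairs (73.5%). Of the 3494 regions with a close neighbour, 1532 were under 500 bp, and the share that random pairing would give was not computed. In 758 pairs (40.5%) a region under 500 bp lay beside one of 1000 bp or more, in 288 (15.4%) both were under 500 bp, and in 139 (7.42%) both were at least 1000 bp wide. The median gap was much the same in these groups, 208, 204.5 and 238 bp. The wider partner had the lower coordinates in 911 pairs and the higher in 951.

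Joining regions across gaps under 1 kb gave 11979 domains, of which 1621 came from more than 1 region: 1400 from 2, 195 from 3, 21 from 4 and 5 from 5. Joined domains had a median length of 2217 bp. They made up 56.8% of the 338 domains over 4000 bp, but 10.3% of those of 1000 to 2000 bp. A joined domain spans its regions and the gaps between them, so it is longer by construction. The 5 runs of 5 regions were chr11:65336851-65343844 (6994 bp), chr12:56319802-56326663 (6862 bp), chr2:182321464-182327118 (5655 bp), chr6:27111080-27116199 (5120 bp) and chr5:180234481-180238402 (3922 bp). All 5 runs overlapped H3K27ac and both MYC lists, and none overlapped MYCN. Of all single regions over 4000 bp, 85.8% met H3K27ac, 83.0% both MYC lists and 9.17% MYCN, so these counts do not set the runs apart. Pairs of 2 wide regions could lie as close as 119 bp, as at chr16:28995238-28996289 and chr16:28996409-28997510.

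H3K27ac was met most often by regions of 2000 to 4000 bp and least by those under 500 bp. An overlap of at least 1 bp was found for 36.5% of regions under 500 bp (34.7 to 38.2%), 51.2% of 500 to 1000 bp (49.1 to 53.3%), 75.2% of 1000 to 2000 bp (74.0 to 76.4%), 87.9% of 2000 to 4000 bp (86.7 to 89.0%) and 85.8% over 4000 bp (80.4 to 90.1%). The widest class exceeded the narrowest by 49.3 percentage points (Newcombe 95% interval 43.8 to 53.7). A longer region meets any list more easily, so a window of 500 bp at the centre of each region was also counted. With it the shares were 39.6%, 49.5%, 66.2% and 69.6% in the first 4 classes and 38.1% over 4000 bp (31.6 to 44.9%). The window reaches beyond regions under 500 bp, so it also counts H3K27ac outside them. The 39.6% of the narrowest class lies within the interval of the widest. With the window the difference between the widest and narrowest class was -1.49 points, with no interval computed. It was -5.18 points when only the centre base was asked for. The shares of bases under H3K27ac were 29.6%, 31.0%, 33.0%, 33.0% and 20.7% from the narrowest class to the widest. By all 3 counts that allow for length, the widest regions thus stood below those of 1000 to 4000 bp. More than 1 H3K27ac region was found in 21.1% of the widest class and in 5.89% of the class of 2000 to 4000 bp. This share also grows with length, and per kb of H3K4me3 the widest class met fewer H3K27ac regions, 0.222 against 0.363.

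MYC of set D followed the same order. It overlapped 36.0% of regions under 500 bp (34.3 to 37.7%), 62.9% of 500 to 1000 bp (60.8 to 64.9%), 83.3% of 1000 to 2000 bp (82.3 to 84.3%), 93.1% of 2000 to 4000 bp (92.2 to 94.0%) and 88.5% over 4000 bp (83.5 to 92.4%). The central window gave 39.3%, 57.3%, 67.9%, 67.4% and 28.0%, so that the difference between the widest and the narrowest class changed from 52.5 points (47.3 to 56.5) to -11.3 points. MYC set D peaks covered 29.8% of the bases in the class of 1000 to 2000 bp and 14.7% over 4000 bp.

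MYC of set C, called with another peak caller, kept a high share in the widest class. It overlapped 24.8% of regions under 500 bp (23.2 to 26.4%), 37.1% of 500 to 1000 bp (35.1 to 39.2%), 49.3% of 1000 to 2000 bp (48.0 to 50.7%), 71.3% of 2000 to 4000 bp (69.7 to 72.9%) and 90.4% over 4000 bp (85.7 to 93.9%). In the central window the shares were 25.9%, 36.4%, 46.8%, 62.8% and 58.3%, and the difference between the widest and the narrowest class was 32.4 points. Covered bases went from 23.9% in the narrowest class to 41.9% in the widest. The 2 MYC lists therefore ordered the widest class differently. Set and caller differ together between them, their headers name the same signal track, and the part of each in this was not tested.

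Of the regions under 500 bp, 17.0% overlapped both MYC lists (15.7 to 18.4%), compared with 46.2% of 1000 to 2000 bp (44.9 to 47.5%) and 83.0% over 4000 bp (77.4 to 87.8%). Set D without set C was most common at 1000 to 2000 bp, with 37.1% of regions, and least at over 4000 bp, with 5.50%. Neither list was met by 1668 regions under 500 bp (56.3%), 150 of 2000 to 4000 bp (4.72%) and 9 over 4000 bp (4.13%). Over all H3K4me3 regions this share was 23.3%. MYCN overlapped 1.01% of regions under 500 bp (0.684 to 1.44%), 2.86% of 500 to 1000 bp, 5.29% of 1000 to 2000 bp, 9.85% of 2000 to 4000 bp (8.84 to 10.9%) and 9.17% over 4000 bp (5.69 to 13.8%). Per length it differed little between the first 4 classes, at 0.0345, 0.0388, 0.0368 and 0.0400 peaks per kb of H3K4me3, and was 0.0208 over 4000 bp, from 22 peaks. MYCN with no MYC of either list was found at 3 H3K4me3 regions, all under 1000 bp wide.

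**Figure D3:**
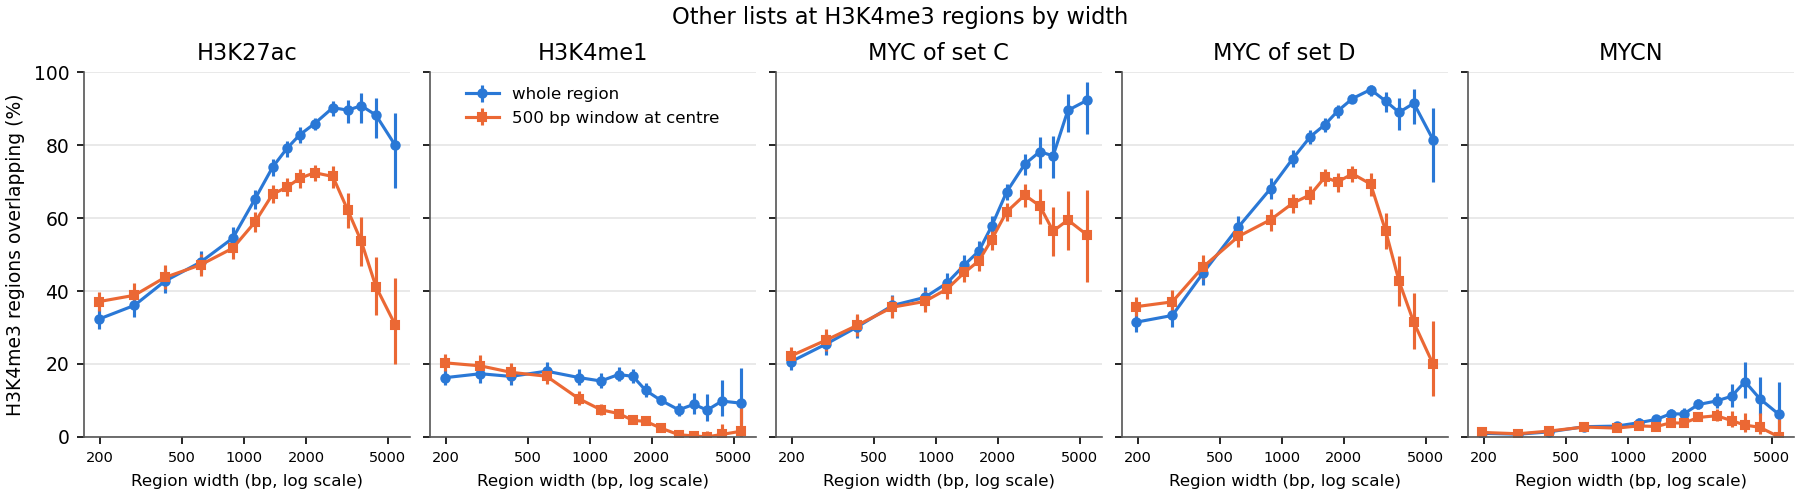
Share of H3K4me3 regions (vertical axis, percent) that overlap each other list, by region width in bp (horizontal axis, log scale, points at the median width of each bin, bars exact 95% intervals); circles use the whole region and squares the 500 bp at its centre. For H3K27ac and MYC of set D the squares drop in the widest bin, 65 regions of 5000 bp or more, to 30.8% and 20%, while the circles are at 80% and 81.5%.

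H3K4me1 ran the other way. It overlapped 16.6% of regions under 500 bp (15.3 to 18.0%), 17.1% of 500 to 1000 bp, 15.6% of 1000 to 2000 bp, 9.0% of 2000 to 4000 bp (8.03 to 10.1%) and 9.63% over 4000 bp (6.06 to 14.3%). In the central window the decline was steeper, from 19.3% (17.9 to 20.8%) in the narrowest class through 13.5%, 5.67% and 1.48% to 0.917% (0.111 to 3.27%, 2 regions) in the widest. It covered 10.5% of the bases of regions under 500 bp and 0.463% of those over 4000 bp. H3K27ac together with H3K4me1 was met by 11.1% of the narrowest class and 8.72% of the widest, H3K4me1 without H3K27ac by 5.53% and 0.917%. Neither of these marks was met by 58.0% of regions under 500 bp (56.2 to 59.8%), 22.4% of 1000 to 2000 bp and 13.3% over 4000 bp (9.09 to 18.5%).

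Inside the regions the lists kept to different places. Positions were folded about the centre of each region and sorted into 5 zones of equal length from edge to centre, so that an even spread would put 20% in each. For regions of 2000 to 4000 bp the innermost zone held 38.2% of 2920 H3K27ac centres (36.5 to 40.0%), 34.3% of 3162 MYC set D centres (32.7 to 36.0%) and 36.4% of 327 MYCN centres (31.2 to 41.9%), and the outermost 3.49%, 3.70% and 3.67%. The set C list gives a short interval inside each of its regions, and 59.6% of 9482 such intervals had their middle in an H3K4me3 region. Of those in regions of 2000 to 4000 bp, 33.0% (31.1 to 35.0%) were in the innermost zone and 4.78% in the outermost. H3K4me1 was arranged the opposite way, with 42.5% of 247 centres in the outermost zone (36.3 to 48.9%) and 13.8% in the innermost. Over 4000 bp the innermost zone held close to the even share, with 21.1% of 227 H3K27ac centres (16.02 to 27.04%) and 20.1% of 244 MYC set D centres (15.2 to 25.7%) there, while the outermost zone still held less, 10.6% and 9.02%.

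Across the edges of regions of 2000 to 4000 bp, coverage by H3K27ac and MYC climbed inward. H3K27ac covered 1.67% of points 500 bp outside an edge, 5.23% at the edge and 51.2% at 999 bp inside, and MYC of set D 0.724%, 2.90% and 42.2%. At 10 kb outside the values were 2.14% and 0.913%. For regions over 4000 bp, H3K27ac covered 22.02% of points 999 bp inside and 23.2% at 1999 bp inside, and MYC of set D 19.95% and 14.9%. H3K4me1 covered 3.44% of points 500 bp outside the widest regions and 0.229% (1 of 436) at 1999 bp inside. An H3K4me1 region reached into the 2 kb outside either edge for 37.7% of regions under 500 bp (36.0 to 39.5%), 17.3% of 2000 to 4000 bp (16.0 to 18.7%) and 32.6% over 4000 bp (26.4 to 39.2%). It did so on both sides for 8.03%, 0.976% and 3.67%. For H3K27ac the shares with either side were 62.7%, 15.9% and 17.9%, and for MYC of set D 62.0%, 7.62% and 10.6%. The higher share beside narrow regions was thus not particular to H3K4me1. Another H3K4me3 region lay within 1 kb of 51.7% of regions under 500 bp and of 13.3% of those of 2000 to 4000 bp. A peak that overlaps a narrow region also reaches past its edge more easily. The part of each in these shares was not tested.

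**Figure D4:**
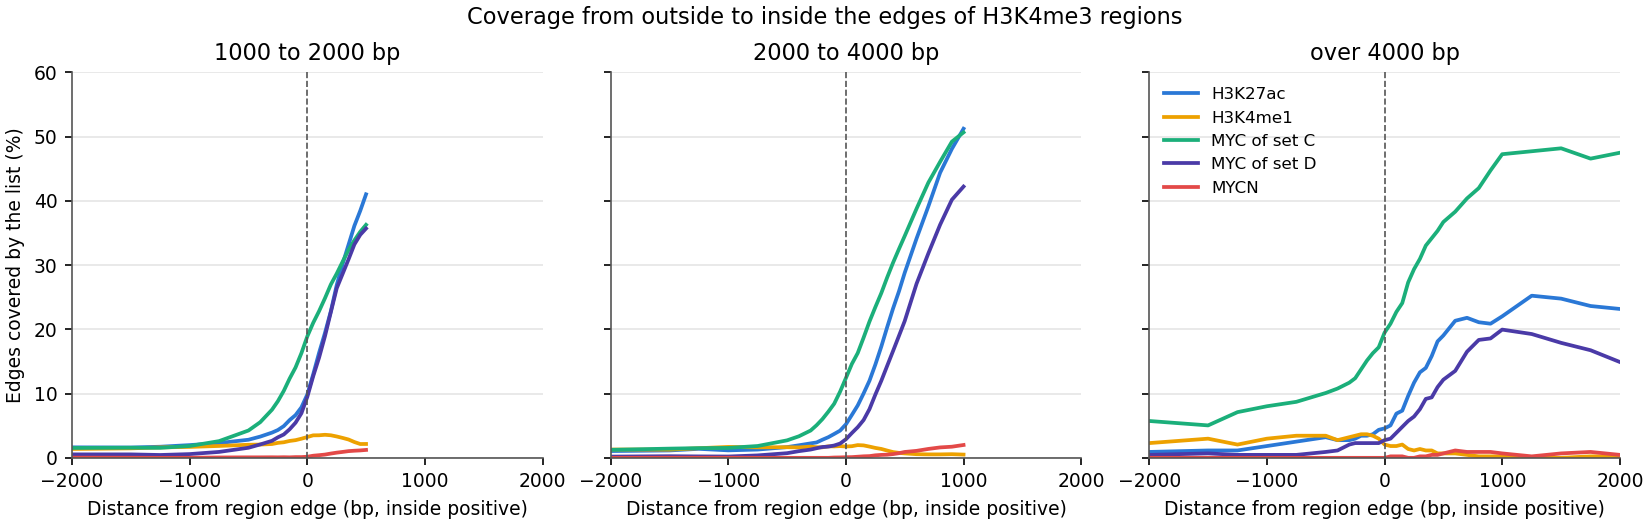
Share of region edges (vertical axis, percent, both edges of each region) covered by each list at distances from the edge in bp (horizontal axis, negative outside, positive inside; lines end just before the midpoint of a region at the lower limit of its class), for 3 width classes. H3K27ac climbs to 51.2% at 999 bp inside regions of 2000 to 4000 bp, and is at 22.02% there and 23.2% at 1999 bp inside those over 4000 bp.

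The gaps inside close pairs were not empty of the other lists. Of the 1873 gaps under 1 kb, 24.3% overlapped H3K27ac (22.4 to 26.4%), 34.6% MYC of set C (32.4 to 36.8%), 32.7% MYC of set D (30.6 to 34.9%), 4.48% H3K4me1 (3.59 to 5.52%) and 0.854% MYCN (0.489 to 1.38%). Asking only for the centre base of the gap gave 19.4%, 30.4% and 26.9% for the first 3. In the 0.541 Mb of these gaps there were 433 MYC set D centres per Mb (379 to 492, exact Poisson interval), compared with 340 (321 to 360) in the H3K4me3 regions beside them and 506 (495 to 517) in all other H3K4me3 regions. For H3K27ac the order was different, with 235 per Mb in the gaps (196 to 279), 315 beside them (297 to 335) and 445 elsewhere (434 to 455). The middles of the set C short intervals stood at 274 (231 to 321), 233 (218 to 250) and 298 (290 to 307) per Mb. By share of bases covered, MYC of set D was nearly equal in the gaps and in the regions beside them, at 22.2% and 21.2%, with 28.6% elsewhere. H3K27ac covered 17.4%, 25.3% and 33.4%. H3K27ac was thus sparser in the gaps by both measures. MYC of set D was denser there than in the adjoining regions by peak centres and nearly equal by bases covered.

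Gaps just under and over the 1 kb limit differed in degree, and for H3K27ac and MYC of set C the direction depended on the count. MYC of set D covered the centre of 30.8% of gaps under 200 bp (27.7 to 33.9%), 28.1% of 200 to 500 bp, 10.0% of 500 to 1000 bp (6.66 to 14.4%) and 2.26% of 1000 to 2000 bp (0.832 to 4.84%). For H3K27ac these values were 22.2%, 18.1%, 13.5% and 4.51%. By overlap of at least 1 bp, H3K27ac instead rose from 25.9% of gaps of 500 to 1000 bp to 32.3% of 1000 to 2000 bp. Between the same gap lengths MYC of set C rose from 31.3% to 41.0% by overlap and fell from 18.1% to 9.02% by centre. A longer gap meets any list more easily, and its centre lies further from the H3K4me3 regions beside it.

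Narrow regions with and without a close neighbour differed in the other lists they met. Of the regions under 500 bp, the 1532 with a neighbour under 1 kb overlapped H3K27ac in 25% (22.8 to 27.2%) and the 1433 without one in 48.7% (46.1 to 51.3%), a difference of 23.7 points (Newcombe 95% interval 20.3 to 27.04). For H3K4me1 the shares were 9.07% and 24.7%, a difference of 15.6 points (13.0 to 18.3), and for MYC of set D 26.6% and 46.1%, a difference of 19.5 points (16.1 to 22.9). For MYC of set C the interval of the difference included 0, at 25.3% and 24.2%, with a difference of -1.11 points and an interval from -4.21 to 2.0. H3K27ac with H3K4me1 was met by 4.63% of the first group (3.64 to 5.81%) and 18.0% of the second (16.0 to 20.1%). None of the other 5 lists was met by 52.4% (49.9 to 54.9%) and 28.5% (26.1 to 30.9%).

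The same regions were sorted by distance to the nearest H3K4me3 region of at least 1000 bp. Within 1 kb of one lay 783 narrow regions, of which 16.3% overlapped H3K27ac (13.8 to 19.1%), 15.5% MYC of set D (13.0 to 18.2%) and none MYCN (0 to 0.470%). At 1 to 5 kb, H3K27ac was met by 47.3% (41.9 to 52.7%) and H3K4me1 by 28.5% (23.8 to 33.6%) of 347 regions, while MYC of set D was still at 23.1% (18.7 to 27.9%). At 5 to 20 kb, 51.0% of 439 regions overlapped H3K27ac and 52.4% MYC of set D (47.6 to 57.1%). Beyond 100 kb, 665 regions overlapped H3K27ac in 33.5%, H3K4me1 in 9.02% (6.96 to 11.5%) and MYC of set D in 43.3% (39.5 to 47.2%). Their median widths were alike, between 265 and 287 bp.

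**Figure D5:**
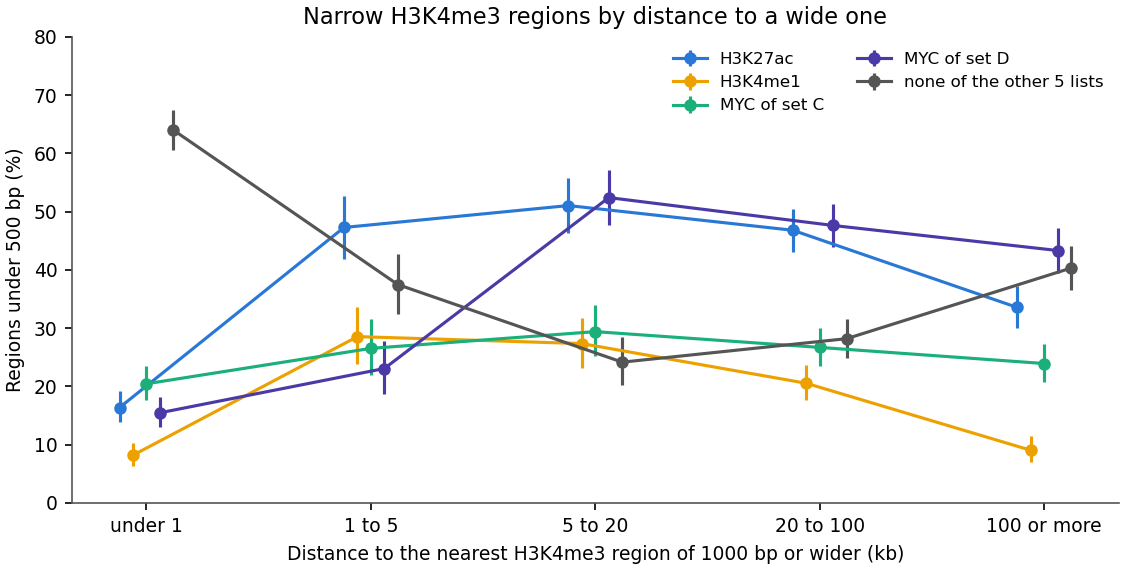
Share of H3K4me3 regions under 500 bp (vertical axis, percent, bars exact 95% intervals) that overlap each list or none, by distance in kb to the nearest H3K4me3 region of at least 1000 bp (horizontal axis). The share with none of the other 5 lists is 64.0% within 1 kb, 24.1% at 5 to 20 kb and 40.3% beyond 100 kb.

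Wider regions also differed by whether they had a close neighbour. At 1000 to 2000 bp, H3K27ac overlapped 63.8% of 723 regions with a neighbour under 1 kb (60.1 to 67.3%) and 77.0% of 4604 without (75.8 to 78.2%), and MYC of set D 72.9% and 85.0%. In the central 500 bp window these shares were 51.7% and 68.5% for H3K27ac and 45.0% and 71.5% for MYC of set D. For MYC of set C the whole regions gave 57.1% with a neighbour (53.4 to 60.8%) and 48.1% without (46.7 to 49.6%). The central window gave 48.8% and 46.5%. At 500 to 1000 bp MYC of set C was higher with a neighbour by both counts. Whole regions gave 44.0% and 33.5%, and the window 42.1% and 33.3%. At 2000 to 4000 bp the whole regions gave MYC of set C overlapping intervals, at 69.4% with a neighbour (64.8 to 73.8%) and 71.6% without (69.9 to 73.3%). In the window MYC of set C was lower with a neighbour, at 54.7% against 64.0%. Over 4000 bp, H3K27ac was at 84.7% of 72 regions with a neighbour and 86.3% of 146 without, with overlapping intervals of 74.3 to 92.1% and 79.6 to 91.4%, while the central window gave 27.8% and 43.2%.

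Regions apart from every other list were mostly narrow. None of the 5 lists was met by 2005 H3K4me3 regions (14.5%, 13.9 to 15.1%), namely 1211 under 500 bp, 434 of 500 to 1000 bp, 316 of 1000 to 2000 bp, 39 of 2000 to 4000 bp and 5 over 4000 bp. These were 40.8% of all regions under 500 bp (39.1 to 42.6%) and 5.93% of those of 1000 to 2000 bp. The shares were 1.23% at 2000 to 4000 bp and 2.29% over 4000 bp (0.749 to 5.27%). Shorter regions miss any list more easily, and no count that allows for length was made for this group. The 5 widest regions that met no list were chr5:133448827-133455260 (6434 bp), chr10:121920655-121925965 (5311 bp), chr12:11904967-11909725 (4759 bp), chr13:49227399-49231987 (4589 bp) and chr2:16614797-16618955 (4159 bp). The first had another H3K4me3 region 231 bp away, and the last had none within 530016 bp.

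No H3K27ac region overlapped 31 of the 218 H3K4me3 regions over 4000 bp (14.2%, 9.87 to 19.6%). Of all H3K4me3 regions, 4676 (33.8%) overlapped none, and a wide region misses a list less easily. Besides the regions of 7575 bp on chromosome 7 and 6434 bp on chromosome 5 already given, the widest were chr7:37386060-37393629 (7570 bp) and chr14:99732657-99739124 (6468 bp), which each held 1 MYC region of set C and no MYC peak of set D. The region chr6:26194907-26201098 (6192 bp) had 91.8% of its bases in MYC of set C and 3.34% in MYC of set D.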

How the data were processed

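The deposited files hold peak positions on hg19, per the submitters' processing notes, as chromosome, start, end and name, with no score, fold, p or q. H3K4me3 regions are MACS2 peaks, per the file headers. The headers name cutruntools for MYCN, MACS2 on non-paired reads for MYC of set D, and stringent SEACR peaks of paired reads for MYC of set C. The labels give MYC of set D as its own control. The callers of H3K27ac and H3K4me1, the aligner and any pooling are not stated in the labels or headers used here. The name of each MYC region of set C holds a shorter interval inside it, unreadable for 16 of 9498. Regions outside chromosomes 1 to 22 and X were left out, none of them H3K4me3. Regions overlap when they share at least 1 bp. Shares have exact Clopper-Pearson 95% intervals and differences of shares Newcombe intervals. Regions named in the text are 5 for each of the widest, the widest without H3K27ac or without any other list, the most isolated, the runs of most regions, the tightest wide pairs (1 of 5 is printed), and 1 at the median of each class. Members and comparisons were chosen with earlier results of these data known, and the splits of narrow regions by neighbour and by distance were added after seeing the data. The code was tested on simulated data and against bedtools. Intervals came from scipy 1.17.1 and statsmodels 0.14.6, run with numpy 2.4.6 in Python 3.11.15, and plots from matplotlib 3.10.9. Planned counts of transcription starts and CG dinucleotides were not run, since an hg19 annotation and genome were not used here.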

Additional observations from a re-analysis of the deposited data

How the results depend on the processing

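Of 55 alternative values for 17 results, 24 lay within the 95% interval of the reported value, 5 changed sign and the other 26 lay outside it or, for the share of bases, had no interval. The sign changes are in the difference between the widest and narrowest class. For the region's centre base these were H3K27ac at -5.18 points, MYC of set D at -12.7 and MYCN at -0.776. For the central 500 bp window they were H3K27ac at -1.49 and MYC of set D at -11.3. The window reaches beyond regions under 500 bp, and the alternative values have no interval of their own. Under the centre base MYC of set C stood at 20.1 and H3K4me1 at -11.3 points, and under the window MYC of set C at 32.4, H3K4me1 at -18.4 and MYCN at 0.621 (8.16 as reported). Joining across gaps under 1 kb gave H3K27ac 38.0, H3K4me1 -13.5 (-6.99 as reported) and MYC of set D 43.3 points. It put 32.0% of domains at 2000 bp or wider (24.5% as reported), with a median gap of 68389 bp. Joining across gaps under 500 bp gave 30.7%. Keeping only regions of at least 500 bp gave 31.2% at 2000 bp or wider, a median gap of 73347.5 bp and 9.32% with a neighbour under 1 kb. A limit of 500 bp or 2 kb for a neighbour gave 22.05% and 28.4%. The wider part of the other list, from its median width up, gave 60.6 points for MYC of set C (65.6 as reported) and 4.18 for MYCN. The difference in bases under H3K27ac was -8.92 points, -21.3 with joining and -2.94 with the wider H3K27ac regions. For MYC of at least 1 list the difference was 52.1 points, and leaving out either list gave 52.5 to 65.6. Counted by the centre of the gap, H3K27ac was at 19.4%, MYC of set C at 30.4% and MYC of set D at 26.9%. For narrow regions, alternatives chosen after seeing the data moved the MYC set D difference to 15.6 points with a neighbour limit of 500 bp and 23.3 with 2 kb. The cause was not tested for these changes. No paired analysis was possible because the labels give no replicate numbers and each mark has 1 library. Planned counts of transcription starts and CG dinucleotides were not run. Depth is unknown, so a missing overlap does not show that a mark or factor is absent.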

Other observations

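H3K4me3 regions differed in width between chromosomes. Chromosome 19, the densest with 17.5 regions per Mb between the first and last region of any list, had 12% of its 1033 regions at 2000 bp or wider (exact 95% interval 10.1 to 14.1%) and a median gap of 23282 bp. Chromosome 4, with 2.62 regions per Mb, had 34.8% of its 500 regions at 2000 bp or wider (30.6 to 39.2%) and a median gap of 93727 bp. Chromosomes 17 and 22, with 10.9 and 9.47 regions per Mb, stood at 21.7% and 15.6%, and chromosomes 13 and 18, with 2.63 and 2.59, at 32.5% and 30.2%. Density and width did not always go together: chromosome X, with 3.12 regions per Mb, had 19.2% at 2000 bp or wider, and chromosome 7, with 4.28, had 19.97%. Chromosome 6 held 29 of the regions over 4000 bp, more than chromosome 1 with 20. H3K27ac overlapped between 55.2% of H3K4me3 regions on chromosome 13 (48.8 to 61.4%) and 74.8% on chromosome 4 (70.8 to 78.5%). Chromosome X was at 58.9% (54.4 to 63.3%).

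Seen from the other lists, H3K4me1 centres that fell in H3K4me3 regions lay in narrow regions more often than those of the other lists printed here. Regions under 500 bp make up 4.41% of H3K4me3 bases and took 18.3% of those H3K4me1 centres, 5.18% of the H3K27ac centres, 6.38% of the MYC set D centres and 4.16% of the MYC set C centres. Few H3K4me1 regions met H3K4me3 at all, 5.18% of 39503. As a share of the whole list, regions under 500 bp took 0.706% of H3K4me1 centres, below H3K27ac (1.09%), MYC of set D (3.33%) and MYC of set C (2.47%). Of the centres inside H3K4me3, regions over 4000 bp, with 5.36% of the bases, took 0.983% for H3K4me1, 2.73% for H3K27ac, 2.60% for MYC of set D and 4.23% for MYC of set C.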
